A study of Mus musculus with 6 samples.

Results

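The classical histone deacetylases are the zinc-dependent enzymes of class I (Hdac1, Hdac2, Hdac3 and Hdac8), class IIa (Hdac4, Hdac5, Hdac7 and Hdac9), class IIb (Hdac6) and class IV (Hdac11). The rule takes members by gene symbol, and no measured value enters it. The 10 symbols matched 11 of the 14495 rows of the count table, because 2 Ensembl identifiers carry the symbol Hdac4, and all 11 rows passed the filter on low counts. The animals were male C57BL/6 mice, and ventricles were taken on postnatal day 14 (P14) or on postnatal day 1 (P1), with no treatment or genetic change given for either group. Each age had 3 libraries of poly(A)-selected RNA, and every library pooled 3 hearts, which makes the spread between libraries a spread between pools rather than between single animals. The labels name the left ventricle as the tissue, while their collection protocol describes ventricles freed of the atria with the septum kept. The question is which of these enzymes differ in mRNA between P14 and P1, in a series whose title concerns the cardiac methylome after birth.

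Histone deacetylases remove acetyl groups from lysines, mostly of histones, and so oppose the histone acetyltransferases. The class I enzymes Hdac1, Hdac2 and Hdac3 are mostly nuclear and work as the catalytic subunits of corepressor complexes. Hdac1 and Hdac2 sit in Sin3, NuRD, CoREST and MiDAC, and Hdac3 sits in the NCoR complex. Class IIa enzymes have little catalytic activity of their own, bind MEF2 transcription factors, and leave the nucleus on 14-3-3 proteins once CaM kinases or protein kinase D phosphorylate them. In the mouse heart Hdac5 and Hdac9 are known as brakes on stress-induced growth, and Hdac1 and Hdac2 together are needed for normal postnatal heart function. Hdac6 is a mostly cytoplasmic deacetylase of tubulin, and Hdac11 is the only class IV enzyme.

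Promoter windows show how differently the members' starts are built. RefSeq windows on GRCm38.p6, reaching 250 bases before to 50 bases after a start, were found for 8 members and 12 starts. Of these, 3 are shown: 1 of a gene that fell at P14 under every setting tried (Hdac2), 1 that holds the only MEF2 motif among the 12 windows (Hdac5) and 1 with no CpG at all (Hdac9). Capitals mark the MEF2 motif, CCAAT and GGGCGG (the box bound by Sp1), searched on both strands. In these 3 windows no 2 of the marked motifs overlap, and the MEF2 match reads as a match on either strand.
Hdac2: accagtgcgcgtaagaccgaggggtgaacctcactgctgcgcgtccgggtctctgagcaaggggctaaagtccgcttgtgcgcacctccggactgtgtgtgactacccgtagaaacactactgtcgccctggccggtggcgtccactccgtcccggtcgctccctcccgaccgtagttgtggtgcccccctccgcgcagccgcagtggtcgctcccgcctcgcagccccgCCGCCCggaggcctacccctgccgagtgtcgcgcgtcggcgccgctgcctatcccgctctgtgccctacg
Hdac5: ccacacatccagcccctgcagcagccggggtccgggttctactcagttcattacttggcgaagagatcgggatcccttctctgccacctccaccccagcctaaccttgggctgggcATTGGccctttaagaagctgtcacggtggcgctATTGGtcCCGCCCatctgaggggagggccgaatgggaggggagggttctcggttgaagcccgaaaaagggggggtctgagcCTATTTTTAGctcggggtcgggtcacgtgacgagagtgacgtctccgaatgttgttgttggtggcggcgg
Hdac9: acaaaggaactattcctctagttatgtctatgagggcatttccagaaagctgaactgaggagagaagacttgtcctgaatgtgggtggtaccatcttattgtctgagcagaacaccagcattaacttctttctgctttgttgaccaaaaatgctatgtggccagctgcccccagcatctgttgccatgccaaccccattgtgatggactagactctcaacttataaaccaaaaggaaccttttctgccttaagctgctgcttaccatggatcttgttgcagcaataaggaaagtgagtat
The Hdac2 window (chr10:36974294-36974593, plus strand) had 36 CpGs, against a median of 7 over 32851 windows of the same length. The Hdac5 window (chr11:102230123-102230422, minus strand) had 18 CpGs and holds CTATTTTTAG 20 to 11 bases before the start, a match to the MEF2 motif that 3.19% of all windows hold. The Hdac9 window shown (chr12:34917046-34917345, minus strand) had 0 CpGs, and the second Hdac9 window had 3. CCAAT, found in 37.4% of all windows, occurred in the windows of Hdac4, Hdac5, Hdac6, Hdac8 and Hdac11. GGGCGG, found in 35.7% of all windows, occurred 5 times each in the windows of Hdac4 and Hdac6 and 1 time each in windows of Hdac2, Hdac5, Hdac7 and Hdac11. A match of letters is a description and not evidence of binding.

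Total counts were 9104230 to 15725993 at P14 and 5916557 to 17353933 at P1. Values are CPM, a gene's reads scaled to a library of fixed size, with library sizes adjusted by the TMM method (a trimmed mean of ratios between libraries). A gene is said to have risen or fallen where edgeR's quasi-likelihood F-test, adjusted over all 14301 tested genes, gave a value below 0.05. P1 replicate 2 stood apart in transcript composition: its 1263 genes with a transcript GC content of at least 58% lay at a median of −0.81 from their mean over the 6 libraries on the log2 scale, against 0.28 to 0.31 in the P14 libraries and −0.10 and 0.06 in the other P1 libraries. Its 2804 genes with a GC content of at most 44% lay at 0.40, against −0.20 to −0.04 in the P14 libraries and −0.03 and −0.01 in the other P1 libraries. Cardiomyocyte markers were abundant throughout, with 12 genes summing to 108560 to 128328 CPM at P14 and 67584 to 76279 CPM at P1. In bulk tissue a change in the share of a cell type and a change of RNA per cell cannot be told apart. Summed markers of proliferating cells (10 genes) were at 32.9 to 53.4 CPM at P14 and 453 to 501 CPM at P1, those of macrophages (10 genes) at 321 to 376 and 85.6 to 102 CPM, and those of endothelium (12 genes) at 1302 to 1424 and 920 to 1207 CPM. Summed erythroid markers (6 genes) were at 2408 to 3234 and 422 to 883 CPM, those of fibroblasts (10 genes) at 1729 to 2461 and 1633 to 2206 CPM, those of smooth muscle and pericytes (9 genes) at 1829 to 2237 and 1784 to 2693 CPM, and those of atrial muscle (7 genes) at 434 to 582 and 811 to 1663 CPM, each P14 first. Of the 9 smooth muscle and pericyte markers 6 rose and 2 fell (median log2 fold change 0.97), beside 21.8% and 22.0% of all tested genes. Acta2, which fell, made up most of that sum (1129 ± 205 CPM at P14 and 1880 ± 460 CPM at P1, SD). Most of the atrial sum was Nppa, Myl4 and Myl7, which are also on the list of fetal and stress genes described below. That sum cannot tell atrial tissue apart from a change of those genes in ventricle. The part of these cell types in the results below was not tested.

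The class I genes Hdac1 and Hdac2 and the class IIb gene Hdac6 fell at P14, while the class IIa gene Hdac5 and the second Hdac4 row rose, so that 2 rows rose, 3 fell and 6 did not pass. Those 5 of 11 rows compare with 43.8% of all tested genes called, 21.8% as rises and 22.0% as falls. Values of the 2 ages did not overlap in 7 rows, 3 with P14 above P1 and 4 with P14 below it, beside 54.8% of all tested genes, 27.3% with P14 above and 27.5% with P14 below. The counts are near the background, and the genes are described by their own values. The main fit has no term for the replicate number. With the replicate block, a fit with that number as a term, 3 rows rose and 4 fell, Hdac7 and Hdac3 being added. With library totals alone the balance moved for members and for all genes: 1 member row rose and 5 fell, and 1620 genes rose and 5592 fell, against 3115 rises and 3149 falls with TMM. Only Hdac1, Hdac2 and the second Hdac4 row were called under every one of the alternatives in which they could be tested (19, 19 and 18). The second Hdac4 row has no annotated transcript, so the settings that correct for transcript GC content and length applied no correction to that row itself. The rises numbered 1 without any single P14 library, 1 without P1 replicate 2 and 3 without P1 replicate 1, and the falls 5 without P1 replicate 2 and 2 without P14 replicate 2, P14 replicate 3, P1 replicate 1 or P1 replicate 3.

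**Figure D1:**
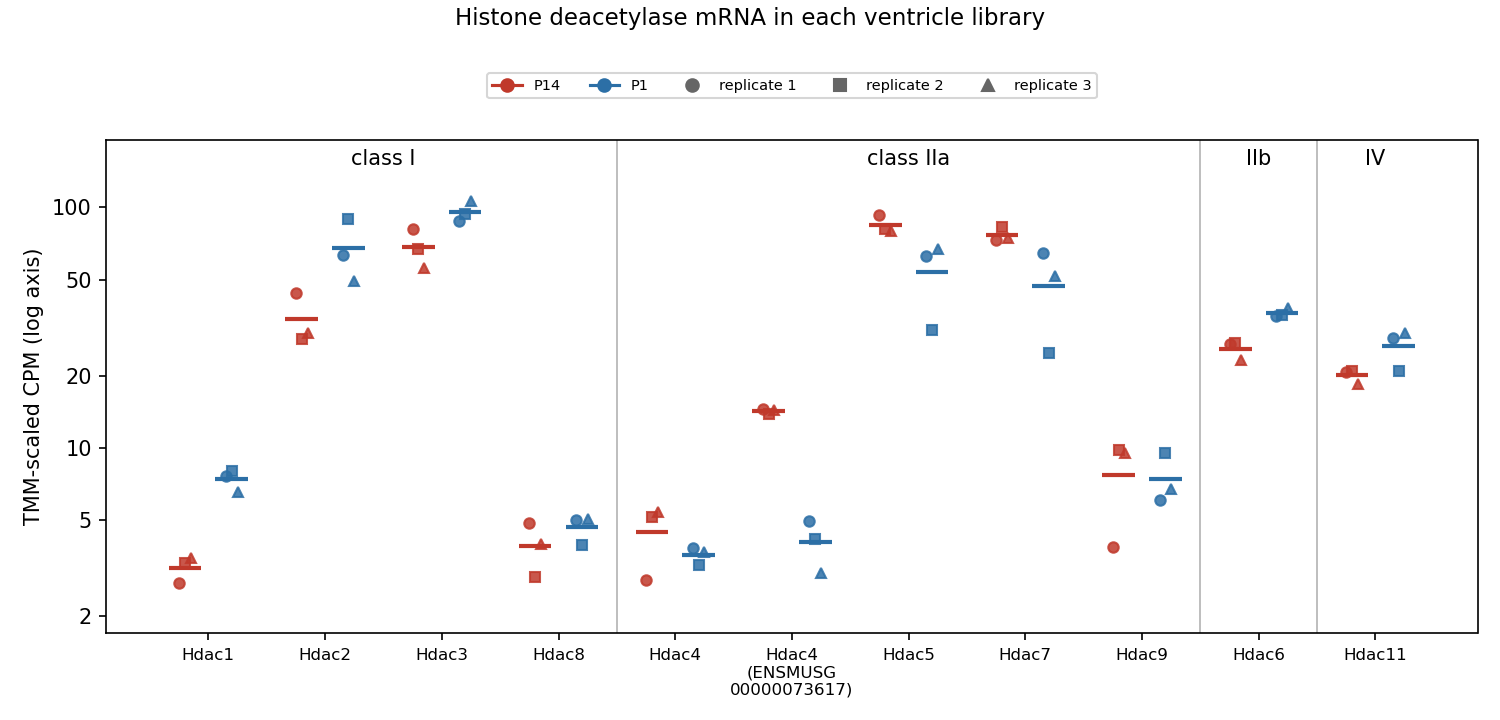
TMM-scaled CPM (log axis) of each histone deacetylase row in the 3 P14 and 3 P1 libraries, with a bar at each mean. Hdac1 and Hdac2 lie lower at P14 in all libraries, the second Hdac4 row lies higher, and P1 replicate 2 (square) is the low point of Hdac5 and Hdac7.

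Within class I, Hdac2 carried the largest called change among abundant members. Hdac2 (ENSMUSG00000019777; chromosome 10, 36974544 to 37001889 in GRCm38), the partner of Hdac1 in the Sin3, NuRD and CoREST complexes, had 44.2, 28.3 and 30.1 CPM at P14, against 63.5, 89.5 and 49.5 CPM at P1. Every P14 library was below every P1 library, although P14 replicate 1 and P1 replicate 3 were only a few CPM apart. The fall was 1.97-fold (log2 fold change −0.98 ± 0.25 SE; edgeR adjusted p = 0.00555), and the log2 fold change was −0.63 after correction for transcript GC content and length (edgeR adjusted p = 0.00998). Hdac2 has a GC content of 41.9%, in the range where P1 replicate 2 was high, and its highest value is in that library. Without P1 replicate 2 the log2 fold change was −0.72 (edgeR adjusted p = 0.00836).

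Hdac1 (ENSMUSG00000028800; chromosome 4, 129516104 to 129542713) had 2.74, 3.32 and 3.48 CPM at P14, against 7.63, 7.99 and 6.57 CPM at P1. The groups were well apart, and the fall was 2.36-fold (log2 fold change −1.24 ± 0.28 SE; edgeR adjusted p = 0.00238). These values rest on 25 to 39 counts at P14 and 39 to 165 at P1, and 61.2% of the 36-base windows of its transcripts occur in the transcripts of no other annotated gene. Of the shared windows 87.6% also occur in Gm10093. Gm10093, named after its values were seen, has a row of its own with 3.17, 1.46 and 2.06 CPM at P14, against 8.42, 9.27 and 9.77 CPM at P1. It fell as well (log2 fold change −1.98 ± 0.31 SE; edgeR adjusted p = 1.8e-04). With both rows summed the values were 5.91, 4.78 and 5.54 CPM at P14, against 16.1, 17.3 and 16.3 CPM at P1, and the log2 fold change was −1.60 (edgeR adjusted p = 9.14e-05). The sources used here do not say how reads that fit both genes were counted.

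Hdac3 (ENSMUSG00000024454; chromosome 18, 37935844 to 37955016), the catalytic subunit of the NCoR complex, had 81.4, 67.2 and 56.0 CPM at P14, against 87.7, 94.2 and 106 CPM at P1. The ages did not overlap, but the gene did not pass (log2 fold change −0.49 ± 0.20 SE; edgeR adjusted p = 0.0597). It passed with the replicate block (0.0464), with totals alone (0.00152), without P1 replicate 2 (0.0331) and without P14 replicate 1 (0.0307), and its log2 fold change was −0.23 after the GC and length correction. Hdac8 (ENSMUSG00000067567; chromosome X, 102284639 to 102505359), which deacetylates the cohesin subunit Smc3, had 4.86, 2.92 and 3.99 CPM at P14, against 5.04, 3.96 and 5.05 CPM at P1. Its ages overlapped, on 22 to 109 counts per library (log2 fold change −0.23 ± 0.30 SE; edgeR adjusted p = 0.564), and the sign turned with the GC and length correction (0.06).

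Within class IIa the values ran the other way or did not separate. Hdac5 (ENSMUSG00000008855; chromosome 11, 102194432 to 102230166) had 92.8, 81.7 and 80.1 CPM at P14, against 62.7, 30.9 and 67.2 CPM at P1. Every P14 library was above every P1 library, and P1 replicate 2 was far below the other P1 libraries. The rise was 1.59-fold (log2 fold change 0.67 ± 0.26 SE; edgeR adjusted p = 0.0481) and stood close to the threshold. The replicate block kept the call (0.00387), which ended without P1 replicate 2 (log2 fold change 0.39; edgeR adjusted p = 0.0649), without P14 replicate 1 (0.134), P14 replicate 2 (0.100) or P14 replicate 3 (0.0873), with totals alone (0.24; adjusted p = 0.451) or after correction for GC content and length (0.14; adjusted p = 0.506). Its longest transcript has a GC content of 59.8%, in the range where P1 replicate 2 was low. With that library left out and the correction applied together, the log2 fold change of Hdac5 was 0.025 (edgeR adjusted p = 0.913).

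Hdac7 (ENSMUSG00000022475; chromosome 15, 97792664 to 97844502), a class IIa gene known for its role in endothelium, shared that pattern. It had 73.5, 82.7 and 74.8 CPM at P14, against 64.8, 24.8 and 51.7 CPM at P1. Again the ages did not overlap and P1 replicate 2 was lowest (GC content 60.2%), and the gene did not pass (log2 fold change 0.71 ± 0.28 SE; edgeR adjusted p = 0.0591). It passed with the replicate block (0.00622), in DESeq2 (0.0452), in limma voom (0.0482) and without P1 replicate 1 (0.00604), while its log2 fold change was 0.39 without P1 replicate 2 and 0.18 after the GC and length correction. With that library left out and the correction applied together, the log2 fold change of Hdac7 was 0.025 (edgeR adjusted p = 0.902). Exons of Hdac7 overlap those of Slc48a1 on the opposite strand. Among 12 endothelial markers 6 rose and 6 did not pass, beside 21.8% of all tested genes that rose. Their part in the Hdac7 values was not tested.

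The 2 Hdac4 rows did not behave alike. The row with the identifier that GENCODE M21 annotates as Hdac4 (ENSMUSG00000026313; chromosome 1, 91928779 to 92195699) had 2.82, 5.18 and 5.41 CPM at P14, against 3.84, 3.26 and 3.70 CPM at P1. Those ages overlapped, since P14 replicate 1 was the lowest of all 6 libraries (log2 fold change 0.28 ± 0.32 SE; edgeR adjusted p = 0.5), and the sign turned with totals alone (−0.19). Exons of this row overlap those of Gm26720 on the opposite strand, and 78.2% of its 36-base windows occur in no other gene. All 3466 shared windows occur in Gm26720, and the strand use of the counting is not known. The row ENSMUSG00000073617, which the table also names Hdac4 and which is not found in GENCODE M21, had 14.5, 13.8 and 14.4 CPM at P14, against 4.95, 4.20 and 3.03 CPM at P1. That row rose 3.41-fold with tight values at P14 (log2 fold change 1.77 ± 0.26 SE; edgeR adjusted p = 8.64e-05). Its counts were 5.15, 2.67 and 2.67 times those of the other row at P14, against 1.29, 1.29 and 0.818 times at P1. With both rows summed as 1 gene the log2 fold change was 1.27 (edgeR adjusted p = 4.64e-04). The part of the locus that the second row covers is unknown from the files and annotation used here, so a difference between transcripts and a difference between overlapping genes cannot be told apart. Over the 6 libraries the genes whose log2 CPM followed this row most closely were Ret, Fam173b and Islr (Pearson r 0.999, 0.998 and 0.998 over all tested genes), given as a description. All 6 libraries share the contrast of age, so likeness to this row includes that contrast.

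Hdac9 (ENSMUSG00000004698; chromosome 12, 34047580 to 34917095), the fourth class IIa gene and the source of the truncated MEF2-binding form MITR, had 3.87, 9.83 and 9.53 CPM at P14, against 6.06, 9.56 and 6.74 CPM at P1. The ages overlapped fully (log2 fold change 0.02 ± 0.34 SE; edgeR adjusted p = 0.968), and its sign turned with several settings, to −0.47 with totals alone. Gene counts do not separate MITR from full-length Hdac9. P14 replicate 1 was the lowest library for both Hdac9 and the annotated Hdac4 row.

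Of the class IIb and class IV members, Hdac6 fell and Hdac11 did not pass. Hdac6 (ENSMUSG00000031161; chromosome X, 7930120 to 7947889), the tubulin deacetylase, had 27.0, 27.2 and 23.2 CPM at P14, against 35.3, 35.9 and 38.1 CPM at P1. The groups were tight and did not overlap, and the fall was 1.41-fold (log2 fold change −0.50 ± 0.19 SE; edgeR adjusted p = 0.0492). The call ended without P14 replicate 1, 2 or 3 (0.0676, 0.109 and 0.185) and without P1 replicate 1 or 3 (0.0900 and 0.139). It also ended in DESeq2 (0.0535), with no filter (0.0504) and at an adjusted p under 0.01. The call was kept with the replicate block (0.0481), in limma voom (0.0490) and after the GC and length correction (−0.57; edgeR adjusted p = 0.00496). Hdac11 (ENSMUSG00000034245; chromosome 6, 91156665 to 91174692) had 20.8, 20.98 and 18.4 CPM at P14, against 28.8, 20.8 and 30.1 CPM at P1. P1 replicate 2 lay within the P14 values, and the gene did not pass (log2 fold change −0.40 ± 0.22 SE; edgeR adjusted p = 0.15). It passed without P1 replicate 2 (−0.55; 0.0203), with totals alone (−0.85; 0.00725) and after the GC and length correction (−0.78; 6.70e-04). Exons of Hdac11 overlap those of Gm14573 and Gm44002 on the opposite strand. Hdac10, the other class IIb gene and not among the members, had 14.0 ± 1.48 CPM at P14 and 10.1 ± 3.67 CPM at P1 (SD, n = 3 each) and did not pass (edgeR adjusted p = 0.195).

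**Figure D2:**
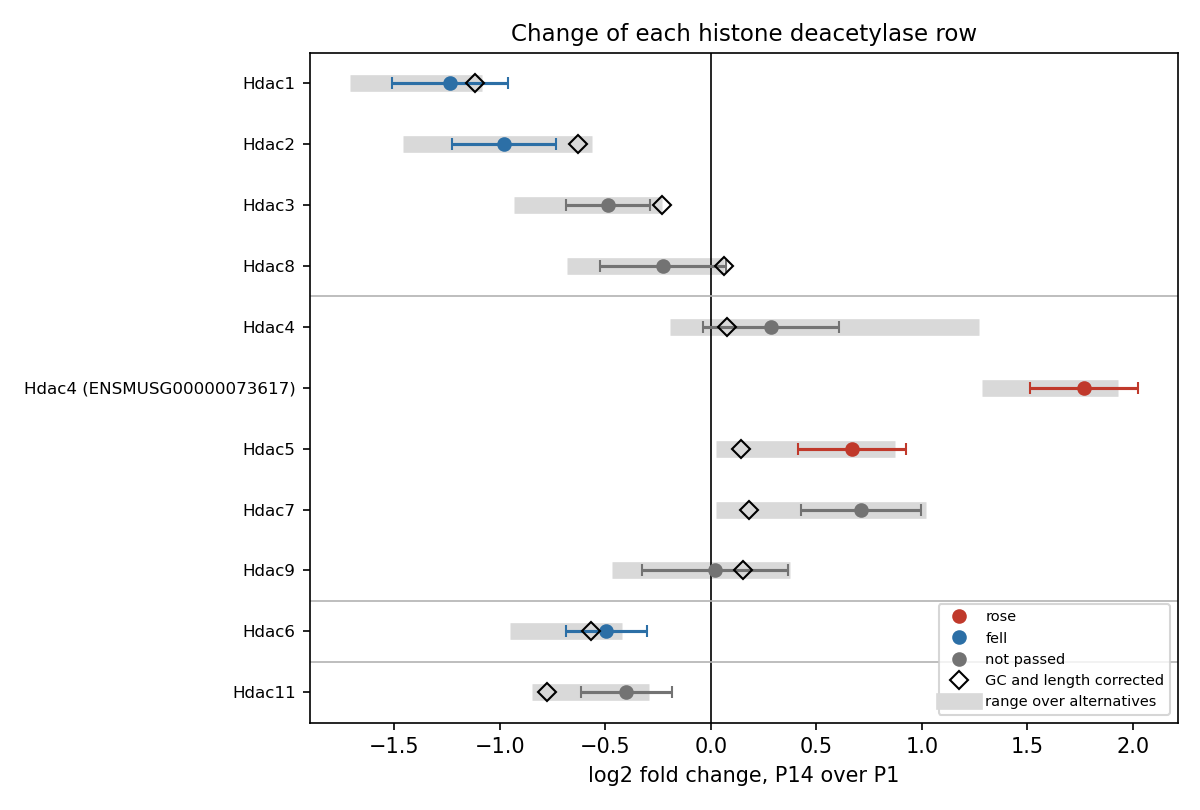
Log2 fold change of P14 over P1 for each row, with the SE as whiskers, an open diamond for the value after correction for transcript GC content and length, and a grey bar for the range over all alternatives. The bars of Hdac8, Hdac9 and the annotated Hdac4 row cross 0, and the other bars stay on 1 side of it. The diamonds of Hdac5 and Hdac7 lie at 0.14 and 0.18. The right end of the annotated Hdac4 bar (1.27) is the value with both Hdac4 rows summed.

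Scaling mattered for the size of every change. Over all tested genes the log2 fold change had a median of −0.01 with TMM and of −0.47 with library totals alone. Measured over the median of all genes, Hdac2 lay at −0.97 with TMM and −0.99 with totals, Hdac5 at 0.68 and 0.71, Hdac7 at 0.72 and 0.73, and Hdac6 at −0.49 and −0.48. Relative to that median, these 4 genes moved by at most a few hundredths between the scalings.

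Levels of different genes were compared as CPM per kilobase of annotated exon. At P14 the level was highest for Hdac3 (16.8 ± 3.13, SD, n = 3 here and below), then Hdac7 (11.4 ± 0.739), Hdac5 (9.66 ± 0.786), Hdac2 (7.65 ± 1.95), Hdac11 (5.21 ± 0.369), Hdac6 (4.43 ± 0.388), Hdac1 (0.923 ± 0.112), Hdac8 (0.811 ± 0.200), Hdac9 (0.528 ± 0.229) and Hdac4 (0.283 ± 0.0908). At P1 it was again highest for Hdac3 (23.7 ± 2.28), then Hdac2 (15.1 ± 4.54), Hdac7 (6.97 ± 3.01), Hdac11 (6.90 ± 1.31), Hdac6 (6.26 ± 0.248), Hdac5 (6.11 ± 2.25), Hdac1 (2.15 ± 0.215), Hdac8 (0.968 ± 0.129), Hdac9 (0.508 ± 0.127) and Hdac4 (0.228 ± 0.0190). The mean of Hdac2 thus lay below those of Hdac5 and Hdac7 at P14 and above them at P1. After correction for GC content and length the P14 order of Hdac2 and Hdac5 turned, with means of 8.53 for Hdac2 and 7.91 for Hdac5, while Hdac7 stayed above Hdac2 (9.23). Neighbours whose libraries overlapped were Hdac5 with Hdac2, Hdac1 with Hdac8, Hdac8 with Hdac9 and Hdac9 with Hdac4 at P14, and Hdac7 with Hdac11, Hdac11 with Hdac6 and Hdac6 with Hdac5 at P1. The low places of Hdac4 and Hdac9 depend on their annotated exon lengths of 15813 and 14665 bases, and that of Hdac1 on its shared windows. The second Hdac4 row has no annotated length and is not in this order.

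Class I made up a smaller and class IIa a larger share of the summed deacetylase level at P14 than at P1. The class IIa share was 34.4%, 39.5% and 40.5% in the P14 libraries, against 24.8%, 12.2% and 22.7% in the P1 libraries. The class I share was 49.9%, 42.8% and 42.8% at P14, against 55.8%, 70.3% and 56.9% at P1. Neither share overlapped between the ages, and a share within a library does not depend on how libraries are scaled. Shares were described and not tested. After correction for transcript GC content and length the class IIa share was 31.1%, 32.9% and 32.9% at P14, against 25.5%, 20.2% and 24.6% at P1, and the class I share was 54.5%, 49.9% and 50.5% against 55.4%, 56.6% and 54.8%. The ages were still apart but closer, and P1 replicate 2 no longer stood far from the other P1 libraries in class I, while it was still the lowest in class IIa. Expressed as a ratio, class IIa reached 0.852 ± 0.142 of class I at P14 and 0.339 ± 0.145 at P1 (SD, n = 3 each), and 0.628 ± 0.0488 and 0.422 ± 0.0565 after the correction. The shares of class IIb were 7.28% to 8.19% at P14 and 8.68% to 9.34% at P1, and those of class IV were 8.47% to 9.54% and 8.19% to 11.1%. Summed over the 10 genes with a length, the level was 63.7, 57.1 and 52.3 CPM per kilobase at P14, against 70.0, 66.0 and 70.5 at P1.

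**Figure D3:**
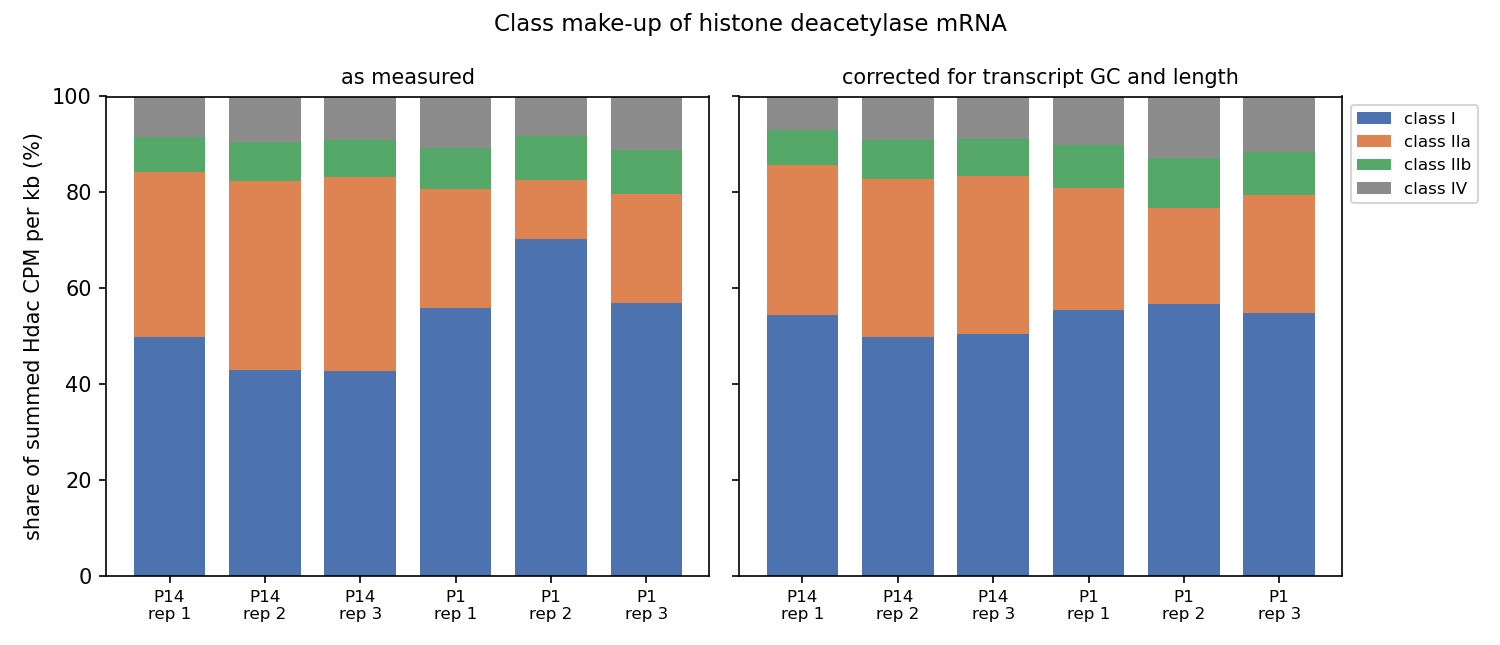
Share of each class in the summed CPM per kilobase of the 10 deacetylases with an annotated length, per library, as measured (left) and after correction for transcript GC content and length (right). Class IIa takes 34.4% to 40.5% at P14 and 12.2% to 24.8% at P1 as measured.

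The corepressor complexes that hold Hdac1 and Hdac2 were followed through lists of their other subunits. Of 15 Sin3 complex genes 5 fell, 3 rose and 7 did not pass (median log2 fold change −0.04, beside −0.01 over all tested genes). Over all tested genes 22.0% fell and 21.8% rose. The adaptor Sap30 fell to 7.68 ± 1.55 CPM at P14, against 32.4 ± 6.35 CPM at P1, the largest fall of the list (log2 fold change −2.07 ± 0.25 SE; edgeR adjusted p = 1.49e-05). The histone chaperones Rbbp4 and Rbbp7, shared by Sin3 and NuRD, fell with log2 fold changes of −1.05 ± 0.20 and −0.88 ± 0.22 (SE). The Sin3-bound proteins Arid4a and Arid4b rose with 1.93 ± 0.27 and 1.03 ± 0.26, and Arid4b was not called with totals alone (0.103). The scaffold Sin3a had 24.3 ± 4.20 CPM at P14 and 32.7 ± 3.44 CPM at P1 and did not pass (edgeR adjusted p = 0.109). The falls numbered 3 without P14 replicate 2, P14 replicate 3 or P1 replicate 1.

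Of 12 NuRD genes 4 fell, 0 rose and 8 did not pass (median −0.33), beside 22.0% of all tested genes that fell and 43.8% called either way. Besides Rbbp4 and Rbbp7 these were the metastasis-associated subunits Mta2, at 45.5 ± 3.67 CPM at P14 and 76.2 ± 6.80 CPM at P1 (SD, n = 3 each), and Mta3 (log2 fold change −0.94 ± 0.22 SE). Mta1 did not pass (log2 fold change −0.35 ± 0.25 SE; edgeR adjusted p = 0.283) and did pass without P1 replicate 2 (0.00801). The falls numbered 9 after the GC and length correction and 9 with totals alone. No NuRD gene was higher at P14 at an unadjusted p under 0.05 (0 genes), and DESeq2 called 0 rises as well. Of 12 CoREST and MiDAC genes 3 fell, 0 rose and 9 did not pass (median −0.32), beside 22.0% falls and 21.8% rises over all tested genes. The CoREST scaffolds Rcor1 and Rcor2 fell with −0.81 ± 0.24 and −1.21 ± 0.30 and the zinc finger subunit Zmym3 with −1.02 ± 0.19 (SE), while the demethylase Kdm1a had 47.7 ± 5.96 CPM at P14 and 64.1 ± 9.52 CPM at P1 (edgeR adjusted p = 0.0945). The Rcor1 call ended without P14 replicate 1 (0.0648), P14 replicate 2 (0.0536) or P1 replicate 3 (0.0502), and 8 genes of the list fell with totals alone. In this list too, 0 genes were higher at P14 at an unadjusted p under 0.05, and DESeq2 called 0 rises.

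For the complex of Hdac3, 3 subunit genes are described. Of the paralogous WD-repeat subunits, Tbl1xr1 rose (0.74 ± 0.25) and Tbl1x fell (−1.02 ± 0.22). Ncor1 had 89.4 ± 18.4 CPM at P14 and 62.4 ± 10.3 CPM at P1 and did not pass (edgeR adjusted p = 0.0629), and it passed without P14 replicate 1 (0.022) or P1 replicate 2 (0.00994), with the replicate block (0.0396) and after the GC and length correction (0.00361). The Tbl1xr1 call ended without P14 replicate 2 (0.0666), P14 replicate 3 (0.12), P1 replicate 1 (0.123) or P1 replicate 3 (0.053) and with totals alone (0.436).

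Kinases and carriers that act on class IIa enzymes were followed next. Of 16 kinases 3 rose, 3 fell and 10 did not pass (median −0.03), so that 6 of 16 were called, beside 43.8% of all tested genes. Prkd2, a protein kinase D, rose to 28.5 ± 1.77 CPM at P14, against 12.9 ± 3.50 CPM at P1 (log2 fold change 1.16 ± 0.24 SE; edgeR adjusted p = 0.00129), while its relative Prkd3 fell (−0.85 ± 0.22) and Prkd1 did not pass (−0.21 ± 0.25, with the sign turned to 0.0080 after the GC and length correction). CaM kinase II genes went both ways. Camk2a and Camk2g fell (−1.04 ± 0.20 and −0.57 ± 0.18), Camk2b, chosen after its values were seen, rose to 8.95 ± 1.38 CPM at P14, against 3.37 ± 1.14 CPM at P1 (log2 fold change 1.42 ± 0.31 SE; edgeR adjusted p = 0.00212), and Camk2d, the main cardiac form, had 81.1 ± 10.0 CPM at P14 and 109 ± 26.4 CPM at P1 (edgeR adjusted p = 0.119). The Camk2g call ended without P14 replicate 2 (0.0632), P14 replicate 3 (0.0708) or P1 replicate 1 (0.0656).

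Of 7 genes of 14-3-3 proteins and nuclear export 4 fell, 1 rose and 2 did not pass (median −0.49). Over all tested genes 22.0% fell and 21.8% rose. Ywhah fell to 19.4 ± 8.04 CPM at P14, against 57.0 ± 6.05 CPM at P1 (log2 fold change −1.54 ± 0.26 SE; edgeR adjusted p = 3.61e-04). The exportin Xpo1 fell (−0.89 ± 0.26), as did Ywhab (−0.67 ± 0.21) and Ywhae (−0.49 ± 0.19), and Ywhag rose (0.51 ± 0.19). Without any single P14 library 2 genes of this list fell. The Ywhae call ended with the replicate block (0.0742), after the GC and length correction (0.271) and without any single library other than P1 replicate 2 (0.0778 to 0.188), and the Ywhag call ended with totals alone (0.862) and without P14 replicate 1, P14 replicate 3, P1 replicate 1 or P1 replicate 3 (0.068 to 0.169). The Ywhab call ended without P14 replicate 2 (0.0892) or P14 replicate 3 (0.0556), and that of Xpo1 without P14 replicate 1 (0.053).

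Of 15 partners of class IIa enzymes in transcription 2 rose, 2 fell and 11 did not pass (median 0.07), against 21.8% rises and 22.0% falls over all tested genes. Mef2a fell to 67.7 ± 14.5 CPM at P14, against 114 ± 24.5 CPM at P1 (log2 fold change −0.75 ± 0.22 SE; edgeR adjusted p = 0.0139), and its call ended without P14 replicate 1 (0.0629) or P14 replicate 2 (0.0519). Mef2c had 61.4 ± 10.6 CPM at P14 and 42.1 ± 11.6 CPM at P1 and did not pass (edgeR adjusted p = 0.0688), but passed without P1 replicate 2 (0.00291) or P14 replicate 1 (0.0434), with the replicate block (0.0234) and after the GC and length correction (3.80e-04). Mef2d did not pass (0.07 ± 0.19, and −0.37 with totals alone). Camta2, a coactivator that class IIa enzymes repress, rose to 37.9 ± 3.19 CPM at P14, against 16.7 ± 5.45 CPM at P1, and Cbx5, a heterochromatin protein, fell (−0.97 ± 0.22). The other rise was Bcl6, a repressor that binds class IIa enzymes, with 12.3, 22.2 and 19.7 CPM at P14, against 0.185, 0.525 and 0.674 CPM at P1 (log2 fold change 5.47 ± 0.42 SE; edgeR adjusted p = 3.75e-07); it was chosen after its values were seen. Without P1 replicate 2 the list had 4 rises and 4 falls, and without P14 replicate 1 or P14 replicate 2 it had 1 fall.

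Of 13 fetal and stress genes linked to MEF2 and class IIa enzymes 6 fell, 1 rose and 6 did not pass (median −0.62). The shares over all tested genes were 22.0% falls and 21.8% rises. Nppa, the atrial natriuretic peptide gene, fell to 221 ± 24.7 CPM at P14, against 594 ± 260 CPM at P1 (log2 fold change −1.43 ± 0.29 SE), beside larger falls of Nppb (−2.26), Myh7 (−4.26) and Tnni1 (−7.13). Xirp2, a MEF2 target in muscle, rose to 198 ± 56.6 CPM at P14, against 11.5 ± 5.31 CPM at P1. The rises numbered 2 without P1 replicate 1 or P1 replicate 2 and 3 with the replicate block.

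**Figure D4:**
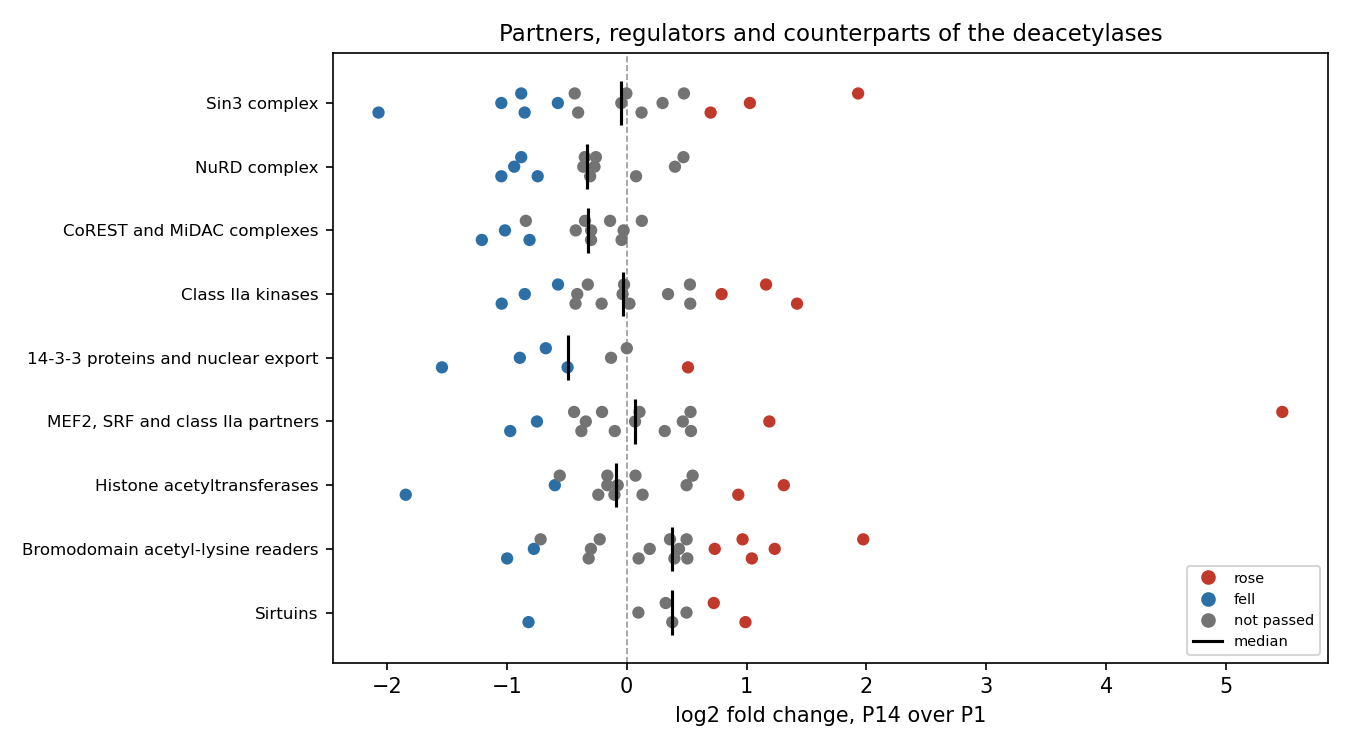
Log2 fold change of P14 over P1 for each tested gene in lists of partners, regulators and counterparts, coloured by its call, with a black line at each list's median. NuRD and CoREST and MiDAC hold falls and no rise, beside 22.0% falls and 21.8% rises over all tested genes. Bcl6 lies at 5.47. The lists for Hdac3 complex subunits, fetal and stress genes, Hdac6 substrates and cohesin are not drawn.

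Enzymes and readers that act on the same acetyl marks were set beside the deacetylases. Of 14 histone acetyltransferases 2 rose, 2 fell and 10 did not pass (median −0.09), beside 21.8% rises and 22.0% falls over all tested genes. Hat1, which acetylates newly made histones, fell to 11.9 ± 1.74 CPM at P14, against 42.8 ± 13.7 CPM at P1 (log2 fold change −1.84 ± 0.26 SE; edgeR adjusted p = 6.08e-05), and Gtf3c4 fell (−0.60 ± 0.21). The coactivator Ncoa3 rose (0.93 ± 0.21), as did Crebbp, at 20.4, 53.8 and 57.2 CPM at P14, against 13.2, 15.6 and 24.8 CPM at P1, where the ages overlap. Ep300 had 23.0 ± 11.5 CPM at P14 and 15.7 ± 3.50 CPM at P1 (edgeR adjusted p = 0.256; 0.0117 without P14 replicate 1). The Crebbp call ended without P14 replicate 2 (0.0663), P14 replicate 3 (0.0628), P1 replicate 1 (0.0597) or P1 replicate 2 (0.188), and the Gtf3c4 call without any single P14 library or P1 replicate 3 (0.076 to 0.119). The Ncoa3 call ended with totals alone (0.135). The rises of the list numbered 4 without P14 replicate 1.

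Of 18 bromodomain proteins, many of which read acetylated lysine, 5 rose, 2 fell and 11 did not pass (median 0.38). Over all tested genes 21.8% rose and 22.0% fell. Brd3, which binds acetylated histones, rose to 62.7 ± 10.9 CPM at P14, against 26.5 ± 3.92 CPM at P1 (log2 fold change 1.24 ± 0.21 SE), while the corepressor Trim28 fell to 85.5 ± 21.1 CPM at P14, against 171 ± 38.8 CPM at P1, and Brd8 fell (−0.77 ± 0.23). The Brd8 call ended without P14 replicate 1 (0.0582). With totals alone 2 genes of this list rose and 6 fell. Of 7 sirtuins, the NAD-dependent deacetylases of class III, 2 rose, 1 fell and 4 did not pass (median 0.38), beside the same shares of all tested genes. Sirt5 rose (0.73 ± 0.25) and Sirt1 fell (−0.82 ± 0.32; edgeR adjusted p = 0.0492), although its libraries overlapped between the ages. The Sirt1 call ended without P14 replicate 1 (0.198), P14 replicate 2 (0.135), P1 replicate 2 (0.144) or P1 replicate 3 (0.0559). It also ended after the GC and length correction (0.0898), with DESeq2 size factors (0.0510) and with the stricter filter (0.0542). The Sirt5 call ended without P14 replicate 1 (0.156), P14 replicate 2 (0.0606) or P1 replicate 3 (0.111) and with totals alone (0.458), where 0 sirtuins rose.

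Lists for substrates of Hdac6 and Hdac8 were read in the same way. Of 13 genes of Hdac6 substrates and tubulin acetylation 4 rose, 3 fell and 6 did not pass (median −0.19), beside 21.8% rises and 22.0% falls over all tested genes. Atat1, the acetyltransferase that opposes Hdac6 on alpha-tubulin, fell to 9.03 ± 2.85 CPM at P14, against 18.2 ± 0.282 CPM at P1 (log2 fold change −0.99 ± 0.25 SE; edgeR adjusted p = 0.0054). The alpha-tubulins Tuba8 and Tuba4a rose to 245 ± 46.1 and 826 ± 205 CPM at P14, against 2.63 ± 0.623 and 109 ± 3.95 CPM at P1, and desmin (Des) rose (1.40 ± 0.28). The other alpha-tubulins of the list, chosen after their values were seen, were lower at P14 with no overlap between the ages. Tuba1c fell (−0.65 ± 0.24; edgeR adjusted p = 0.0369), while Tuba1a (−0.47 ± 0.19; 0.0553) and Tuba1b (−0.55 ± 0.22; 0.0575) did not pass. The Tuba1c call ended without P14 replicate 2 (0.159), P14 replicate 3 (0.123), P1 replicate 1 (0.0554) or P1 replicate 3 (0.166). Tuba1b passed without P1 replicate 1 (0.0203) or P1 replicate 2 (0.0313) and with the replicate block (0.0324), and both Tuba1a and Tuba1b passed after the GC and length correction (0.0141 and 0.0122). The falls numbered 5 without P1 replicate 2 and 5 after the GC and length correction. Of 13 cohesin genes 4 fell, 0 rose and 9 did not pass (median −0.20), beside 22.0% falls and 21.8% rises over all tested genes. Smc3, the cohesin subunit that Hdac8 deacetylates, did not pass (−0.10 ± 0.25, and 0.24 without P1 replicate 2), while Rad21 and Stag1 fell (−1.83 ± 0.19 and −0.84 ± 0.26). The other falls were Esco2, an acetyltransferase of Smc3, and Cdca5, which stabilises cohesin after replication, at 0.465 ± 0.157 and 1.09 ± 0.803 CPM at P14, against 6.18 ± 0.911 and 18.5 ± 1.71 CPM at P1, both chosen after their values were seen. The markers of proliferating cells given above were lower at P14 too, and their part in these falls was not tested. The Stag1 call ended without P14 replicate 1 (0.0798). The cohesin loader Nipbl, also chosen afterwards, was the 1 gene higher at P14 at an unadjusted p under 0.05 (log2 fold change 0.71 ± 0.29 SE; edgeR adjusted p = 0.0633), and it passed in DESeq2 (0.0486), with the replicate block (0.00658) and without P14 replicate 1 (0.0140) or P1 replicate 2 (0.0110).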

How the data were processed

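Messenger RNA of 6 pools of mouse ventricle was analysed, 3 at P14 and 3 at P1. The authors deposited read counts per gene as whole numbers, named by Ensembl identifier and symbol; library totals differ, so no scaling is visible. The submitters' processing notes name GRCm38 (mm10), bedtools and edgeR 3.2.4 without saying what each did. Aligner, counting program, strand setting and annotation were not given in the sources used here. Among all rows the smallest gene total in the table is 60, so genes with fewer reads are not analysed here. Per the labels' protocols, reads had 36 cycles.

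The software was edgeR 4.0.16 on R 4.3.3, with DESeq2 1.42.0 and limma 3.58.1 as alternatives. The filterByExpr filter (minimum count 10) left 14301 genes, and P14 was compared with P1 in the robust quasi-likelihood F-test after TMM scaling, two-sided, with Benjamini-Hochberg adjustment over all tested genes. SE is the coefficient over the square root of F. Self-tests ran on simulated data. Positions, lengths and GC content came from GENCODE M21 (GRCm38), which holds 14316 of the identifiers. The GC and length correction fits splines with 4 degrees of freedom to each library, centred so that TMM sets its scale. Settings varied were scaling, filter, test, threshold, replicate block, GC and length correction and leaving out each library. Summing rows, the joint removal of P1 replicate 2 with the correction, and corrected class shares were added after the data were seen.

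Same-numbered libraries of the ages correlated at 0.295, 0.112 and 0.102 in their deviations from their group's mean, and other pairs at −0.214 to 0.09. All 3 exceed 0.1, so replicate numbers were taken to pair the libraries in the replicate block, although the labels do not say that a number is shared. The main fit, which gives the calls reported above, does not use this pairing. No library was a duplicate (chi-square per degree of freedom at least 12.0).

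The members follow a rule on symbols alone, but this family and the lists were picked for study with earlier results of these data known. The genes named are all members, 21 partners named whatever their result, up to 3 called genes per list of at least 10 CPM with the largest change, up to 1 more against the list's main direction, and the 3 genes closest to the called row with the largest change. Gm10093, Bcl6, Camk2b, Esco2, Cdca5, Nipbl, Tuba1a, Tuba1b and Tuba1c were named after their values were seen. Results for some genes that the rule names are not reported here.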

Additional observations from a re-analysis of the deposited data

How the results depend on the processing

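Of the 11 rows, Hdac1 (log2 fold change −1.71 to −1.08), Hdac2 (−1.46 to −0.57) and the second Hdac4 row (1.29 to 1.93) kept direction and call under every alternative run on them. The settings with the GC and length correction left the second Hdac4 row itself uncorrected, since it has no annotated GC content or length. The number of members that rose, 2 as reported, was 1 with DESeq2 size factors, totals alone, upper quartile scaling, the stricter filter, an adjusted p under 0.01, and the GC and length correction alone, with the replicate block or without P1 replicate 2, and lay between 1 and 3 when single libraries were left out. The number that fell, 3 as reported, was 5 with totals alone and between 2 and 5 when single libraries were left out. With the replicate block 3 rose and 4 fell, the calls gained being Hdac7 and Hdac3. With totals alone 1620 genes rose and 5592 fell, and with an adjusted p under 0.01, 2025 genes fell. Leaving out single libraries gave 2387 to 3401 rises and 2269 to 3309 falls among all genes.

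The class I share at P14 was 33.1% without division by length and 51.6% with the GC and length correction, and 42.8% to 46.3% without single libraries; at P1 it was 50.5% without division and 56.4% to 63.6% without single libraries. The class IIa share at P14 was 41.5% with the longest transcript, 53.0% without division and 32.3% with the correction, and 36.9% to 40.0% without single libraries; at P1 it was 31.5% without division and 17.4% to 23.8% without single libraries. Signs that turned were those of genes near 0. Hdac8 turned with the GC and length correction (0.060, and 0.027 with the block) and Hdac4 with totals alone (−0.19). Hdac9 turned with totals alone (−0.47), upper quartile scaling (−0.046), the replicate block (−0.051), voom (−0.13) and without P14 replicate 2 (−0.19), P14 replicate 3 (−0.16), P1 replicate 1 (−0.13) or P1 replicate 3 (−0.013), with a range of −0.19 to 0.38 over single libraries left out. Mef2d turned with totals alone (−0.37), the GC and length correction (−0.20; −0.21 with the block; −0.18 without P1 replicate 2) and without P1 replicate 2 (−0.0059, in a range up to 0.18). Prkd1 turned with that correction (0.0080, 0.018 and 0.019 in the same order), as did Smc3 (0.22, 0.23 and 0.33), which also turned without P14 replicate 1 (0.014) or P1 replicate 2 (0.24), in a range from −0.24. The cause of these changes was not tested. Depth limits Hdac1, Hdac4, Hdac8 and Hdac9 most, with 18 to 206 counts per library.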
